A study of Mus musculus with 6 samples.

Results

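Heat shock proteins and DnaJ cochaperones were examined in mouse primary renal tubular epithelial cells (TECs), cells isolated from kidney tubules and cultured, after Sox9 was silenced. The group was set by gene name, with no measured value in the rule, but it was chosen with earlier results of these data known. It holds the protein-coding genes of the families Hspa, Hspb, Hspd, Hspe, Hsph, Hsp90a, Dnaja, Dnajb and Dnajc, without Hspa5. These are 69 of the 30315 genes in the table, of which 18062 are protein-coding.

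Heat shock proteins are molecular chaperones that bind unfolded proteins, keep them from aggregating and help them reach their folded form. Hsp70 proteins (the Hspa genes) work in cycles of ATP hydrolysis that a J-domain protein of the Dnaj families starts and a nucleotide exchange factor, such as the Hsp110 protein Hsph1, ends, and Hsp90 takes over clients at a later step. Under heat, low oxygen or other protein-damaging stress, heat shock factor 1 (Hsf1) induces many of these genes by binding heat shock elements in their promoters, and in the kidney they are known for their induction in tubules after ischemia.

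To investigate the response to loss of SOX9, RNA-Seq was performed on 6 libraries from C57BL/6 mouse TECs. All 6 were exposed to hypoxia/reoxygenation (H/R), with 6 h at 1% oxygen in glucose-free medium and 18 h of reoxygenation in complete medium. A small interfering RNA (siRNA), either siSox9 against Sox9 or the control siNC, had been transfected 12 h before H/R, with 3 libraries for each. No cells without H/R were analysed here, so the values do not show how H/R itself changed a gene. The column names of the 3 siSox9 libraries give 1 siRNA by a number and do not name Sox9, and they were assigned to siSox9 because it is the siRNA in the labels that is not the control. With 1 siRNA, effects of lower Sox9 and any other effect of that siRNA cannot be told apart. The labels do not say whether the libraries of a group came from separate cultures or animals, and p-values measure only the spread between these libraries.

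Values are FPKM, reads scaled to the exon length of a gene and to the mapped reads of its library. Depth was close between the libraries, with 23893197 to 25725743 mapped reads behind the scaling, so 1 read on 1 kilobase of exon was worth 0.0389 to 0.0418 FPKM. Sox9 measured 8.93, 8.61 and 9.07 FPKM with siSox9 and 25.7, 26.5 and 25.6 FPKM with siNC, a fall to 34.2% that matched the labels in every library (exact two-sided permutation p = 0.1, the smallest that 3 against 3 can give). Of 13 tubular markers 9 averaged 1 FPKM or more, and Slc34a1, Umod, Slc12a1 and Aqp2, which mark differentiated tubule segments, averaged less. Summed tubular markers were 3817 to 3971 FPKM with siSox9 and 3654 to 3854 FPKM with siNC. Macrophage and leukocyte markers summed to 169 to 188 and 169 to 175 FPKM, fibroblast markers to 6.45 to 7.95 and 7.99 to 9.09 FPKM, endothelial markers to 2.91 to 3.1 and 3.22 to 4.12 FPKM, and podocyte markers to 7.82 to 8.58 and 12.2 to 12.5 FPKM, where Nphs1 and Wt1 were each under 1 FPKM. Among the tested markers, 1 of 9 tubular (Cdh16) and 1 of 6 macrophage and leukocyte markers (Lyz2) were called higher, the 1 tested podocyte marker (Podxl) was called lower, and neither the 1 fibroblast nor the 1 endothelial marker tested was called. The part of other cell types in the results was not tested, and fewer cells of a type and less RNA per cell cannot be told apart in bulk samples.

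The Hsp90 and Hsp70 proteins of the cytosol led the levels. Hsp90ab1, the constitutive cytosolic Hsp90, had a mean of 964 FPKM over the 6 libraries and was rank 22 of all genes in the table. Hspa8, the constitutive cytosolic Hsp70, had 625 FPKM and rank 41. The small heat shock protein Hspb1, which holds unfolded proteins without ATP and binds actin filaments, had 451 FPKM and rank 59, and the stress-inducible Hsp90aa1 had 339 FPKM and rank 80. These 4 genes made up 67.4% of the FPKM of all members. The mitochondrial chaperones Hspd1 (167 FPKM) and Hspa9 (166 FPKM) followed, and no other member exceeded 100 FPKM. Of the rest, 24 members lay between 10 and 100 FPKM, 25 between 1 and 10 FPKM, and 14 under 1 FPKM.

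**Figure D1:**
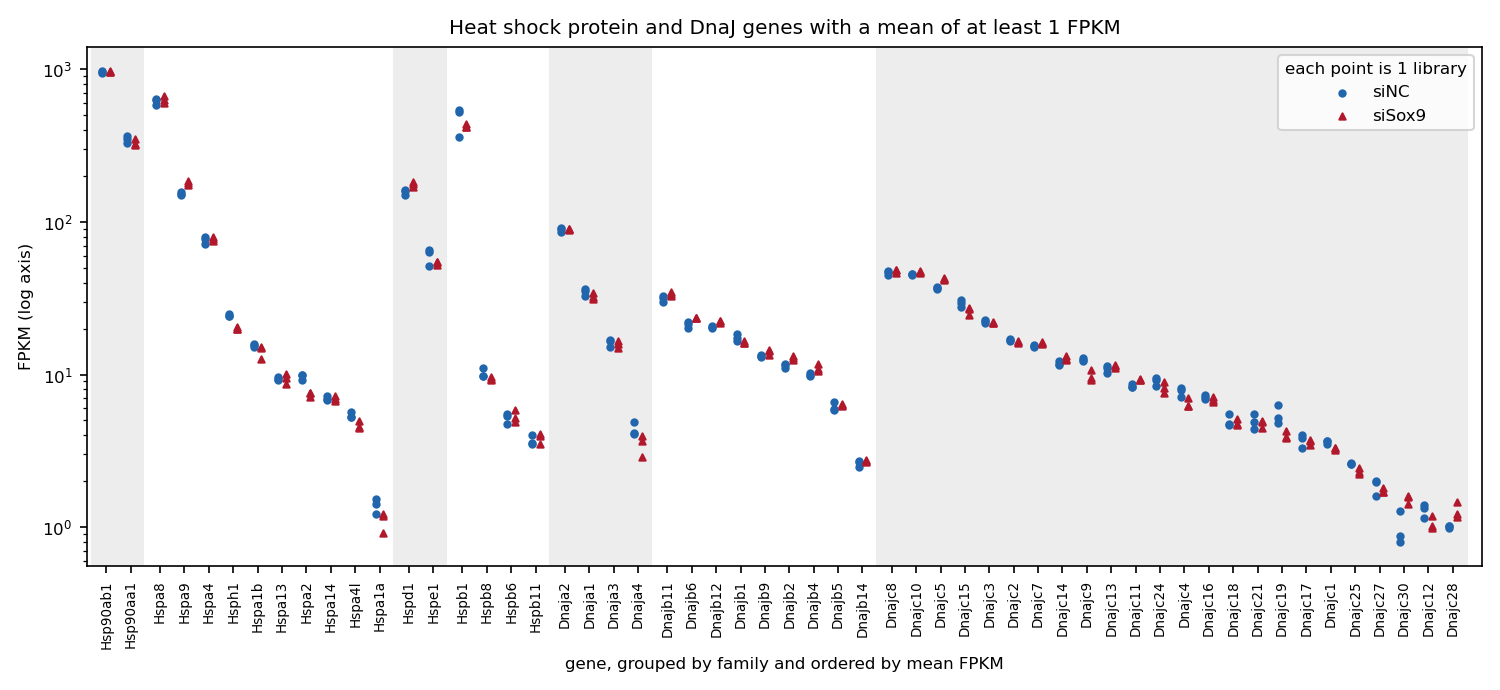
FPKM of the 55 members with a mean of at least 1 FPKM, on a log axis, grouped by family and ordered by mean level within each family. Each point is 1 library, with siNC as circles and siSox9 as triangles, and the points of the groups lie close together for nearly every gene while the genes range from about 1 FPKM to 964 FPKM for Hsp90ab1.

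Taken over all members, the amount of chaperone transcript differed little between the groups. The members summed to 3474, 3503 and 3596 FPKM with siSox9 and to 3335, 3674 and 3593 FPKM with siNC. The groups overlapped, and the sums were 1.17% to 1.22% of all FPKM of a library.

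Of the 55 members tested, those with a mean of at least 1 FPKM, 8 rose with siSox9, 6 fell and 41 did not pass the threshold (limma on log2(FPKM + 1), Benjamini-Hochberg adjusted p under 0.05 over 12009 genes). Among all 12009 genes tested, 12.8% were called higher and 17.6% lower, 30.4% in all. The share of members called was 25.5%, near that background, so the number called is no result about the group. In 27 members (49.1%) the 3 values of each group did not overlap, against 46.3% of all genes tested. The median log2 fold change was -0.03 over the members and -0.01 over all genes tested, and the members ranged from -0.35 to 0.36. Fold changes are on the log2(FPKM + 1) scale, which understates the change of low genes.

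**Figure D2:**
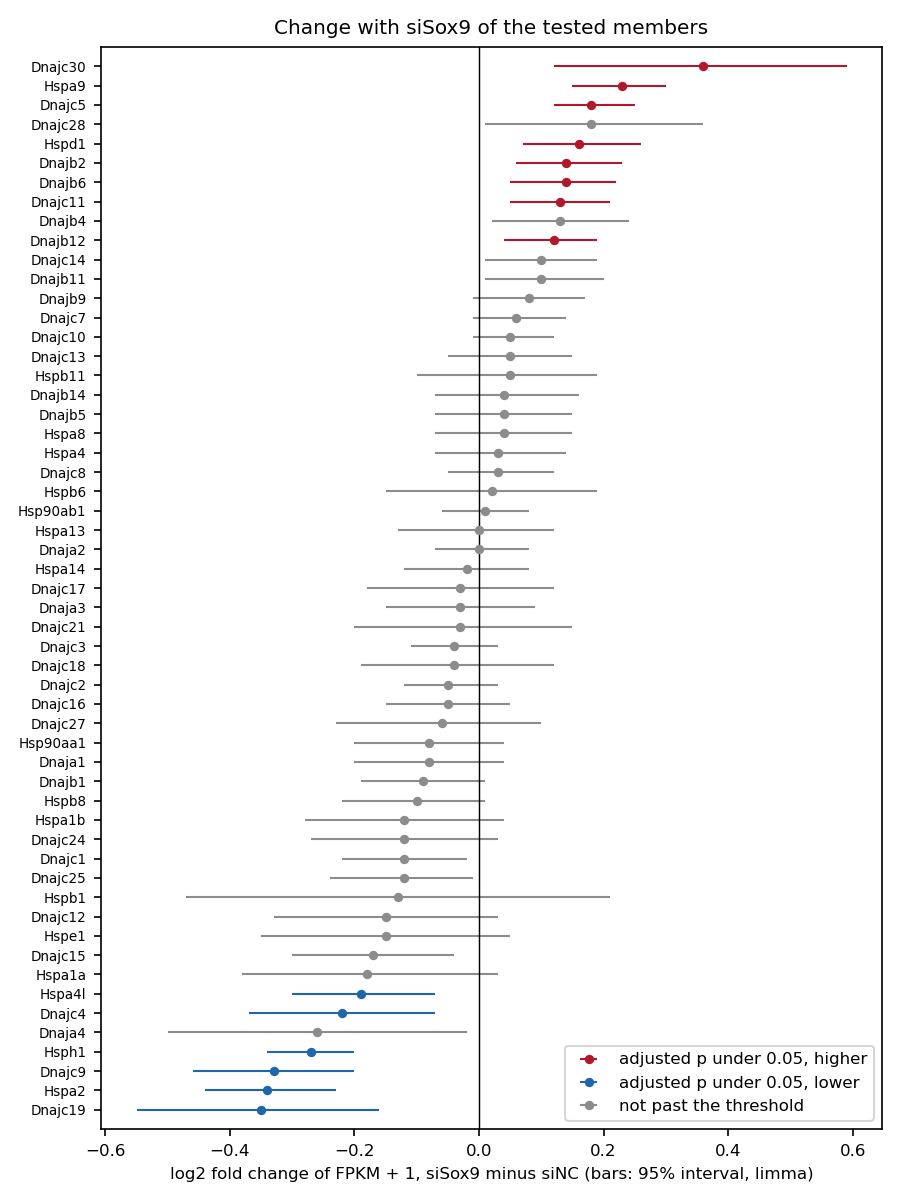
Log2 fold change of FPKM + 1, siSox9 minus siNC, of the 55 tested members with limma's 95% interval, ordered by size. The 8 members called higher run from 0.12 (Dnajb12) to 0.36 (Dnajc30) and the 6 called lower from -0.19 (Hspa4l) to -0.35 (Dnajc19), with the 41 others, in grey, between and among them.

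The members that rose were Dnajc30, Hspa9, Dnajc5, Hspd1, Dnajb2, Dnajb6, Dnajc11 and Dnajb12, and those that fell were Dnajc19, Hspa2, Dnajc9, Hsph1, Dnajc4 and Hspa4l. Of these 14, Hspa9, Dnajc5, Hspa2, Dnajc9 and Hsph1 were called in the same direction under every alternative processing in which they could be tested. Location was set by short lists made by hand for the mitochondrion and the endoplasmic reticulum, which may leave out members of either. Of the 8 members listed as mitochondrial, 4 rose and 1 fell, and of the 8 listed for the endoplasmic reticulum 1 rose. Among the 39 tested members on neither list, 3 rose and 5 fell. The shares called were 62.5% (mitochondrion), 12.5% (endoplasmic reticulum) and 20.5% (neither list). Of all genes tested 30.4% were called, 12.8% higher and 17.6% lower. The locations were not tested against each other. With 1 library left out, the count of members called higher fell, and in most cases so did the count over all genes. It was 3, 2 and 3 members without siSox9 replicate 1, 2 or 3. Without siNC replicate 1, 2 or 3 it was 6, 5 and 5 members. Over all genes, 1532 were called higher with all 6 libraries. That count was 1044, 944 and 1204 without siSox9 replicate 1, 2 or 3, and 1565, 1143 and 1038 without siNC replicate 1, 2 or 3. Quantile normalization moved the split to 9 higher and 4 lower, and median centring gave 11 higher and 6 lower, with Dnajb4, Dnajc14 and Dnajb11 added.

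**Figure D3:**
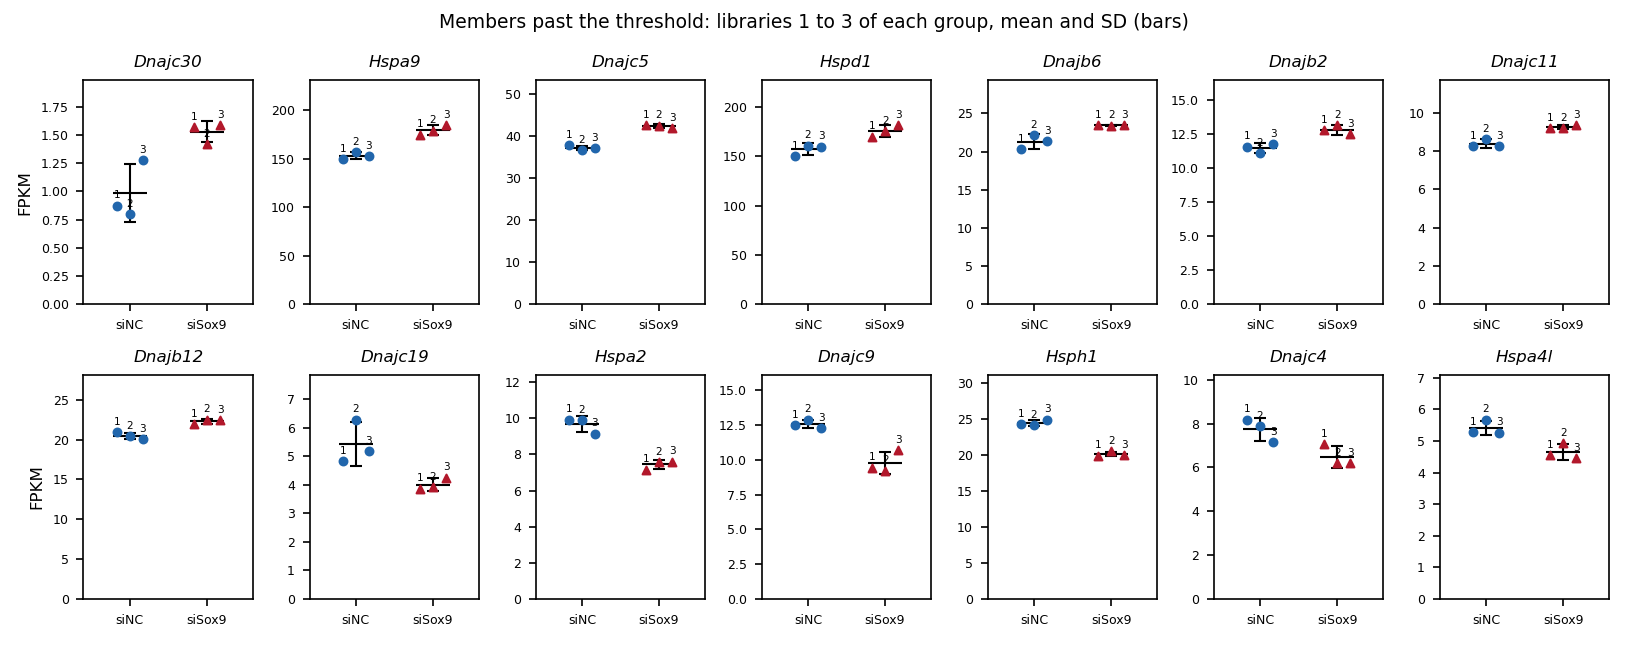
FPKM in each library (numbered 1 to 3) of the 14 members past the threshold, with the group mean and SD as bars and axes that start at 0. The first 8 panels are genes higher with siSox9 and the last 6 are lower, and in all 14 the 3 siSox9 values lie on one side of the 3 siNC values.

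Heat shock elements are runs of the unit GAA and its reverse TTC at a fixed spacing, and promoters were searched for them because Hsf1 acts on this gene group through such sites. RefSeq promoter windows of GRCm38.p6, from 250 bases before to 50 bases after the start, matched 55 of the 69 members. Hspa8, Hsp90aa1, Hsp90ab1, Hspa9 and Dnajc5 were among the 14 with no window here. A run of 3 units (GAA, TTC, GAA or TTC, GAA, TTC with any 2 bases between neighbours, which together cover both strands) was found in 4 of these 55 members (7.27%) and in 179 of 27025 genes with a window (0.662%). A pair of units (GAA, TTC or TTC, GAA with any 2 bases between, each its own reverse complement and contained in any run of 3) was found in 15 members (27.3%) and in 17% of all genes with a window. The windows are 30 bases long, given 5′ to 3′ on the strand of the gene, with the matched run in capitals. They are shown for the members with a run of 3 and for some inducible members with a pair.

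The 4 members with a run of 3 units or more were Hsph1 (chr5:149636280-149636309, - strand), Dnajb6 (chr5:29735843-29735872, + strand), and Hspd1 and Hspe1, which share 1 stretch between their starts (chr1:55088053-55088082, - strand for Hspd1 and + strand for Hspe1).
Hsph1: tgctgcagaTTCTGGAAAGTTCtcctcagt
Dnajb6: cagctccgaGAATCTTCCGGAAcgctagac
Hspd1: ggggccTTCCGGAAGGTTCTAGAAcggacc
Hspe1: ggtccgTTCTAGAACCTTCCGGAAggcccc

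Pairs of units stood in Hspa1a (chr17:34972242-34972271, - strand), Hspa1b (chr17:34959324-34959353, - strand), Hspb8 (chr5:116422844-116422873, - strand), Dnaja1 (chr4:40722333-40722362, + strand) and at 2 places in Hspb1 (chr5:135887791-135887820 and chr5:135887811-135887840, + strand). Dnaja4, Dnajb4, Dnajc10, Dnajc27, Hspb3 and Hspb6 also held a pair, not printed here, and the inducible Dnajb1 held none in its windows.
Hspa1a: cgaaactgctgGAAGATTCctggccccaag
Hspa1b: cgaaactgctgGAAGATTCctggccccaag
Hspb8: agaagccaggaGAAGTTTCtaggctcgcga
Dnaja1: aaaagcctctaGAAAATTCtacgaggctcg
Hspb1, first: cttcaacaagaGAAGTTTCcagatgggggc
Hspb1, second: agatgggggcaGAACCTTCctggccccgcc

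The windows of Hspa1a and Hspa1b were identical over all 30 bases. The 4 members with the longer run did not move one way with siSox9. Hsph1 fell, Hspd1 and Dnajb6 rose, and Hspe1 (log2 fold change -0.15) did not pass the threshold. A pair or more of units stood in 2 of the 4 members called higher that had a window, in 1 of 6 called lower and in 11 of 34 tested members that were not past the threshold. These matches are letters in a window and not measured binding. The search took only exact units at the stated spacing, so a window with no match is not shown to lack an element.

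In the Hsp70 and Hsp110 families, 1 of 10 tested members rose and 3 fell, 40% called against 30.4% of all genes tested, with no test of the family. Hsph1, the Hsp110 protein that exchanges nucleotide on Hsp70 and takes part in disaggregation, measured 19.9, 20.5 and 20 FPKM with siSox9 and 24.3, 24.1 and 24.9 FPKM with siNC. The groups did not overlap, and the spread within each was small beside the gap. The level with siSox9 was 82.3% of that with siNC (log2 fold change -0.27, SE 0.03, adjusted p = 0.000861). Its Hsp110 relative Hspa4l measured 4.55, 4.93 and 4.45 FPKM with siSox9 and 5.29, 5.68 and 5.27 FPKM with siNC. The fall of Hspa4l (log2 fold change -0.19, SE 0.05, adjusted p = 0.0285) lost its call when siSox9 replicate 1 or 3 or siNC replicate 2 or 3 was left out, with adjusted p between 0.057 and 0.0853, and also with no minimum (adjusted p = 0.0757), with FPKM rescaled to the same sum in every library (TPM, adjusted p = 0.105) and with quantile normalization (adjusted p = 0.0701). The third Hsp110 gene, Hspa4, was the most abundant of them at 76.6 FPKM and did not pass the threshold (log2 fold change 0.03, 95% interval -0.07 to 0.14).

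Hspa2, an Hsp70 protein best known from the testis, fell as well. It measured 7.16, 7.58 and 7.6 FPKM with siSox9 and 9.93, 9.91 and 9.15 FPKM with siNC. All 3 siSox9 libraries lay below all 3 siNC libraries, at 77% of the siNC mean (log2 fold change -0.34, SE 0.04, adjusted p = 0.00179). The Hsp70 gene that rose was Hspa9, which encodes the mitochondrial Hsp70 that pulls imported proteins across the inner membrane and folds them.

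The heat-inducible Hsp70 genes Hspa1a and Hspa1b, the classic targets of Hsf1, were not past the threshold. Hspa1b measured 14.9, 15.2 and 12.6 FPKM with siSox9 and 15.8, 15.1 and 15.5 FPKM with siNC. Its groups overlapped, and siSox9 replicate 3 was the lowest library (log2 fold change -0.12, 95% interval -0.28 to 0.04, adjusted p = 0.217). Hspa1a was far lower, at 1.21, 1.19 and 0.917 FPKM with siSox9 and 1.21, 1.41 and 1.52 FPKM with siNC (log2 fold change -0.18, 95% interval -0.38 to 0.03, adjusted p = 0.171). Of the 50-base stretches of Hspa1a 60.3% also occur in another gene, most often Hspa1b, and of those of Hspa1b 62.3%, so the division of reads between the pair is uncertain. Hspa8 measured 604, 631 and 666 FPKM with siSox9 and 587, 636 and 626 FPKM with siNC, with overlapping groups and a log2 fold change of 0.04 (95% interval -0.07 to 0.15). In Hspa8, 38.6% of the 50-base stretches also occur in another gene.

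Neither cytosolic Hsp90 gene passed the threshold. Hsp90ab1 measured 957, 965 and 979 FPKM with siSox9 and 949, 981 and 955 FPKM with siNC (log2 fold change 0.01, 95% interval -0.06 to 0.08). Hsp90aa1, which stress induces, measured 319, 322 and 349 FPKM with siSox9 and 330, 364 and 351 FPKM with siNC (log2 fold change -0.08, 95% interval -0.20 to 0.04). In both genes the groups overlapped, and 47.5% of the 50-base stretches of Hsp90aa1 occur in another gene.

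**Figure D4:**
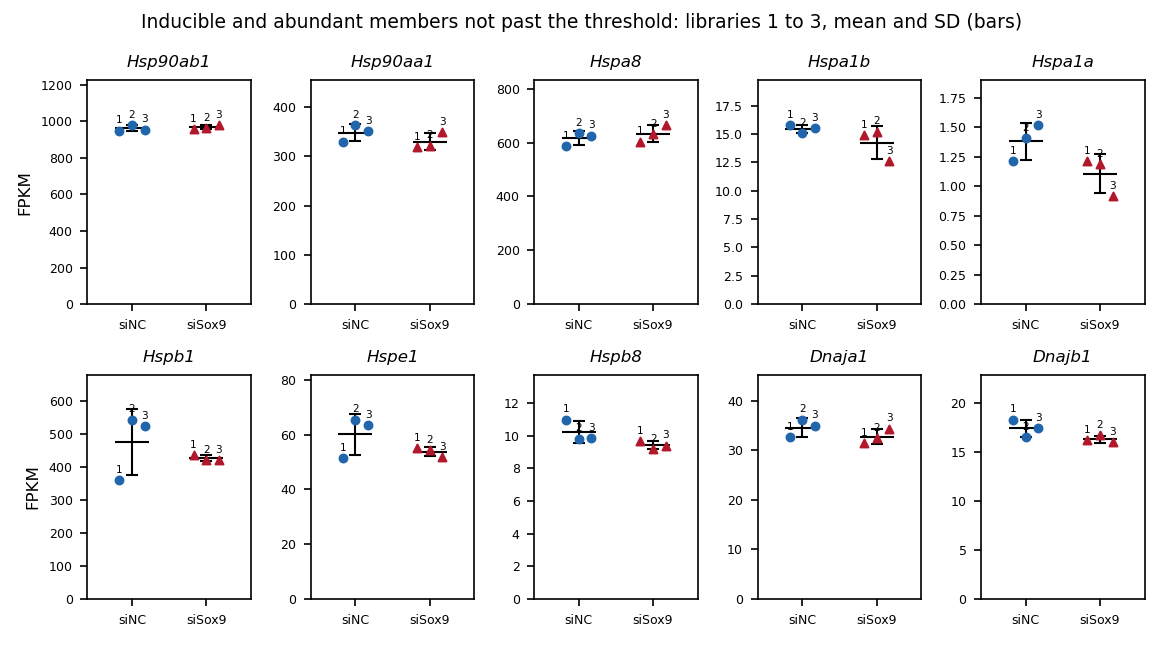
FPKM in each library (numbered 1 to 3) of 10 inducible or abundant members that were not past the threshold, with group mean and SD as bars and axes that start at 0. The panel of Hspb1 shows siNC replicate 1 at 359 FPKM, below the 3 siSox9 libraries, and the other siNC libraries at 543 and 524 FPKM, above them, and the panel of Hspe1 has the same order of siNC libraries.

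Of the 8 members listed as mitochondrial, 5 passed the threshold, or 62.5% against 30.4% of all genes tested. The list itself was not tested, and this share depends on which members it holds. Hspa9 measured 175, 179 and 185 FPKM with siSox9 and 150, 157 and 153 FPKM with siNC. All siSox9 libraries were higher than all siNC libraries, at 117% of the siNC mean (log2 fold change 0.23, SE 0.03, adjusted p = 0.00261). Hspd1, the Hsp60 subunit of the mitochondrial folding chamber, measured 170, 176 and 182 FPKM with siSox9 and 150, 161 and 160 FPKM with siNC. These groups did not overlap either, at 112% of the siNC mean (log2 fold change 0.16, SE 0.04, adjusted p = 0.0229). The call of Hspd1 was lost without siSox9 replicate 2 (adjusted p = 0.0741) or siSox9 replicate 3 (adjusted p = 0.0671) and with no minimum (adjusted p = 0.0702), and 39.7% of its 50-base stretches occur in another gene, most often a pseudogene.

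Hspe1 encodes Hsp10, the lid of the Hsp60 chamber, and is transcribed away from Hspd1 from the promoter they share. It measured 55, 54.4 and 51.9 FPKM with siSox9 and 51.5, 65.5 and 63.4 FPKM with siNC. The siNC libraries enclosed the siSox9 libraries, and Hspe1 was not past the threshold (log2 fold change -0.15, 95% interval -0.35 to 0.05, adjusted p = 0.226). Without siNC replicate 1, Hspe1 passed as lower (log2 fold change -0.26, adjusted p = 0.00368), opposite in sign to Hspd1. The exons of Hspd1 and Hspe1 overlap on opposite strands, and as the counting is not stated to use strand, reads in the overlap cannot be told apart. Whether the change of Hspd1 differed from that of Hspe1 was not tested.

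The J-domain proteins of the mitochondrion moved both ways. Dnajc19, which works in the import motor with Hspa9, measured 3.86, 3.91 and 4.25 FPKM with siSox9 and 4.82, 6.28 and 5.19 FPKM with siNC. It had the largest fall of the members tested, to 73.8% of the siNC mean (log2 fold change -0.35, SE 0.08, adjusted p = 0.0185), and lost its call without siSox9 replicate 1 (adjusted p = 0.0606) or siSox9 replicate 2 (adjusted p = 0.0616) and with no minimum (adjusted p = 0.0675). Dnajc15, a relative of Dnajc19 in the import motor that is named here after its values were seen, measured 27.2, 24.4 and 26.8 FPKM with siSox9 and 31, 29.6 and 27.8 FPKM with siNC. Its groups did not overlap, and it lay just outside the threshold (log2 fold change -0.17, SE 0.05, adjusted p = 0.0574) and passed it without siNC replicate 3 (log2 fold change -0.21, adjusted p = 0.0464) and with a minimum of 5 FPKM (log2 fold change -0.17, adjusted p = 0.0436). Dnaja3, a partner of Hspa9 in the matrix, had overlapping groups and a log2 fold change of -0.03; it is also named after its values were seen.

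Dnajc11, a mitochondrial membrane protein tied to the structure of cristae, measured 9.19, 9.21 and 9.38 FPKM with siSox9 and 8.25, 8.65 and 8.27 FPKM with siNC. Its rise was small (log2 fold change 0.13, SE 0.03, adjusted p = 0.0280) and lost its call without siSox9 replicate 1, 2 or 3 or siNC replicate 1 or 3, with adjusted p from 0.0624 to 0.0907, and with TPM (adjusted p = 0.061). Dnajc30, a protein of the inner membrane linked to respiratory complex I, measured 1.57, 1.42 and 1.59 FPKM with siSox9 and 0.873, 0.798 and 1.28 FPKM with siNC. This was the largest rise of the members tested, to 155% of the siNC mean (log2 fold change 0.36, SE 0.10, adjusted p = 0.0364). It rested on few reads, 67, 60 and 63 with siSox9 and 36, 32 and 53 with siNC, and lost its call without siSox9 replicate 1, 2 or 3 or siNC replicate 1 or 2, with adjusted p from 0.0727 to 0.0988, and with no minimum (adjusted p = 0.112). Dnajc19 and Dnajc30 overlap exons of Fxr1 and Bud23 on the opposite strand. As the counting is not stated to use strand, reads in these overlaps cannot be told apart.

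Among the 8 members listed for the endoplasmic reticulum, 1 gene passed the threshold, 12.5% against 30.4% of all genes tested. Log2 fold changes were above 0 in 5 of the 8 members and in 5567 of the 12009 genes tested. The list itself was not tested. Dnajb12, a membrane J-domain protein of the degradation pathway for misfolded proteins, measured 21.9, 22.5 and 22.4 FPKM with siSox9 and 20.9, 20.4 and 20.1 FPKM with siNC (log2 fold change 0.12, SE 0.03, adjusted p = 0.0265). The groups did not overlap, and the call was lost without siSox9 replicate 1, 2 or 3 or siNC replicate 2 or 3, with adjusted p from 0.054 to 0.0977, and with TPM (adjusted p = 0.0963). Dnajb11, a soluble cochaperone of the Hsp70 protein Hspa5 (BiP), measured 34.6, 33.9 and 32.8 FPKM with siSox9 and 32.7, 30 and 31.6 FPKM with siNC. It was not past the threshold (log2 fold change 0.10, adjusted p = 0.102) and passed as higher without siNC replicate 1 (log2 fold change 0.13, adjusted p = 0.048) and with median centring (log2 fold change 0.13, adjusted p = 0.044). Dnajb9, a target of the unfolded protein response that binds BiP, had values of 13.5, 14.2 and 14.5 FPKM with siSox9 and 13.2, 13.4 and 13.1 FPKM with siNC, without overlap but not past the threshold (log2 fold change 0.08, adjusted p = 0.141). Dnajc3, another cochaperone of BiP, had overlapping groups and a log2 fold change of -0.04 (adjusted p = 0.369).

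Among the DnaJ proteins of class B, 3 of 9 tested genes rose and none fell, 33.3% called, and of 24 genes of class C 3 rose and 3 fell, 25% called, both near the 30.4% of all genes tested, while no gene of class A passed. None of the 3 class B calls held without siSox9 replicate 1 or without siSox9 replicate 2, and the values for each gene follow. The classes were not tested against each other. Dnajb6, which keeps aggregation-prone proteins soluble, measured 23.5, 23.4 and 23.5 FPKM with siSox9 and 20.3, 22.2 and 21.4 FPKM with siNC. Every siSox9 library exceeded every siNC library (log2 fold change 0.14, SE 0.04, adjusted p = 0.0313), and the call was lost without siSox9 replicate 1, 2 or 3 or siNC replicate 1 or 3, with adjusted p from 0.0517 to 0.0893, and with no minimum (adjusted p = 0.0625). Dnajb6 overlaps exons of Gm5129 on the opposite strand and shares 17.7% of its 50-base stretches with other genes. Dnajb2, which binds ubiquitin and hands clients to the proteasome, measured 12.8, 13.2 and 12.5 FPKM with siSox9 and 11.6, 11.1 and 11.8 FPKM with siNC (log2 fold change 0.14, SE 0.04, adjusted p = 0.0241). The call of Dnajb2 was lost without siSox9 replicate 1 or 2 or siNC replicate 2, with adjusted p from 0.0661 to 0.0904, and with TPM (adjusted p = 0.0566). Dnajb12, described above, lost its call without siSox9 replicate 1 (adjusted p = 0.054) or 2 (adjusted p = 0.0977).

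The stress-inducible Dnajb1, the main Hsp40 partner of Hspa1a and Hspa8, measured 16.2, 16.7 and 16 FPKM with siSox9 and 18.3, 16.5 and 17.4 FPKM with siNC. Its groups overlapped (log2 fold change -0.09, 95% interval -0.19 to 0.01, adjusted p = 0.169). The class A partners Dnaja1 and Dnaja2 also had overlapping groups. Dnaja1 had a mean of 32.7 FPKM with siSox9 and 34.6 FPKM with siNC (log2 fold change -0.08, 95% interval -0.20 to 0.04). Dnaja2 was level, at 89.4 and 89.3 FPKM (log2 fold change 0.00, 95% interval -0.07 to 0.08). Dnaja4, named after its values were seen, measured 3.95, 3.65 and 2.88 FPKM with siSox9 and 4.14, 4.89 and 4.08 FPKM with siNC. Its groups did not overlap, but it was not past the threshold (log2 fold change -0.26, adjusted p = 0.093). Of the alternatives, only limma voom on recovered reads called Dnaja4 lower.

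Dnajc5 and Dnajc9 were the Dnajc genes called under every alternative. Dnajc5, the cysteine string protein that chaperones vesicle fusion proteins with Hspa8, measured 42.6, 42.4 and 41.8 FPKM with siSox9 and 37.7, 36.6 and 37.1 FPKM with siNC. The groups did not overlap, and the level with siSox9 was 114% of the siNC mean (log2 fold change 0.18, SE 0.03, adjusted p = 0.00304). Dnajc9, which chaperones histones H3 and H4 and recruits Hsp70 to them, measured 9.44, 9.23 and 10.7 FPKM with siSox9 and 12.5, 12.9 and 12.3 FPKM with siNC. Its groups did not overlap, and the level with siSox9 was 78.1% of that with siNC (log2 fold change -0.33, SE 0.06, adjusted p = 0.00524).

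Dnajc4, a little-studied J-domain protein, measured 7.06, 6.2 and 6.2 FPKM with siSox9 and 8.18, 7.87 and 7.16 FPKM with siNC (log2 fold change -0.22, SE 0.06, adjusted p = 0.0358). The highest siSox9 value lay just under the lowest siNC value, and the call was lost without siSox9 replicate 2 or 3 or siNC replicate 1 or 2, with adjusted p from 0.0832 to 0.113, and also with no minimum (adjusted p = 0.104), TPM (adjusted p = 0.123) and quantile normalization (adjusted p = 0.0556). Dnajc8, a splicing-associated protein, was the Dnajc gene with the highest level, at 47.8 FPKM with siSox9 and 46.6 FPKM with siNC. It was not past the threshold (log2 fold change 0.03, 95% interval -0.05 to 0.12).

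None of the 4 tested Hspb genes passed the threshold, and the value of the most abundant turned on 1 library. Hspb1 measured 436, 421 and 421 FPKM with siSox9 and 359, 543 and 524 FPKM with siNC. Of its 50-base stretches 48.8% also occur in another gene, most often a pseudogene. The siNC libraries lay on both sides of the siSox9 libraries, with a coefficient of variation of 21.3% (log2 fold change -0.13, 95% interval -0.47 to 0.21, adjusted p = 0.522). Without siNC replicate 1, Hspb1 passed as lower (log2 fold change -0.32, adjusted p = 0.0013). In that library short genes were low, with a median log2 difference from the other siNC libraries of -0.08 over genes with under 1000 bases of exon, -0.05 from 1000 to under 2000 bases and 0.03 from 4000 bases up. Hspb1 has 1031 bases of exon and Hspe1 1474, and the part of this length pattern in either result was not tested. Hspb8, which works with Bag3 in the removal of damaged proteins by autophagy, measured 9.69, 9.21 and 9.4 FPKM with siSox9 and 11, 9.83 and 9.84 FPKM with siNC. Its groups did not overlap, but it was not past the threshold (log2 fold change -0.10, 95% interval -0.22 to 0.01, adjusted p = 0.152).

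The 14 members under a mean of 1 FPKM were not tested in the comparison. They were Dnajb3, Dnajb7, Dnajb8, Dnajb13, Dnajc5b, Dnajc6, Dnajc22, Hspa1l, Hspa12a, Hspa12b, Hspb2, Hspb3, Hspb7 and Hspb9, many of them known from testis, muscle or brain. Dnajb3 came nearest to the minimum with 0.987 FPKM, and the lowest member above it had 1.14 FPKM. Hspb3 had 1 read in siNC replicate 2 and none in the other libraries, and Dnajb8 had 1 read in siSox9 replicate 2 and 1 in siNC replicate 3. In the libraries without a read, Hspb3 and Dnajb8 were thus not detectable above 3 reads, the limit that a count of 0 allows. Dnajb3 had 19 to 34 reads and Dnajc22 21 to 36 reads. Hspa12a, a distant relative of Hsp70 named here after its values were seen, had groups without overlap, at 0.197, 0.254 and 0.314 FPKM with siSox9 and 0.436, 0.563 and 0.372 FPKM with siNC. None of the 14 was called when all genes were tested without a minimum.

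The genes that work with these chaperones were described from a list of 58 partners, of which 53 were tested, 5 rose and 7 fell. That is 22.6% called, against 30.4% of all genes tested, and the median log2 fold change was -0.01. Their transcription factor Hsf1 measured 19, 19.9 and 19.9 FPKM with siSox9 and 22.5, 19.8 and 19.9 FPKM with siNC. Its groups overlapped, with siNC replicate 1 above the other libraries (log2 fold change -0.08, 95% interval -0.20 to 0.05, adjusted p = 0.324). Bag3, an Hsf1 target that links Hsp70 to Hspb8, had means of 35.3 and 34.9 FPKM and was not past the threshold (log2 fold change 0.02, adjusted p = 0.765). The counts of partners also changed with 1 library left out, as did the counts over all genes. Without siSox9 replicate 1 there were 3 higher and 4 lower, without replicate 2 there were 3 and 2, and without replicate 3 there were 4 and 6. Without siNC replicate 1 there were 5 higher and 9 lower, without replicate 2 there were 4 and 6, and without replicate 3 there were 3 and 5. Over all genes 3650 were called with all 6 libraries, and 2619, 2424, 2849, 3654, 2839 and 2596 in these settings in order.

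**Figure D5:**
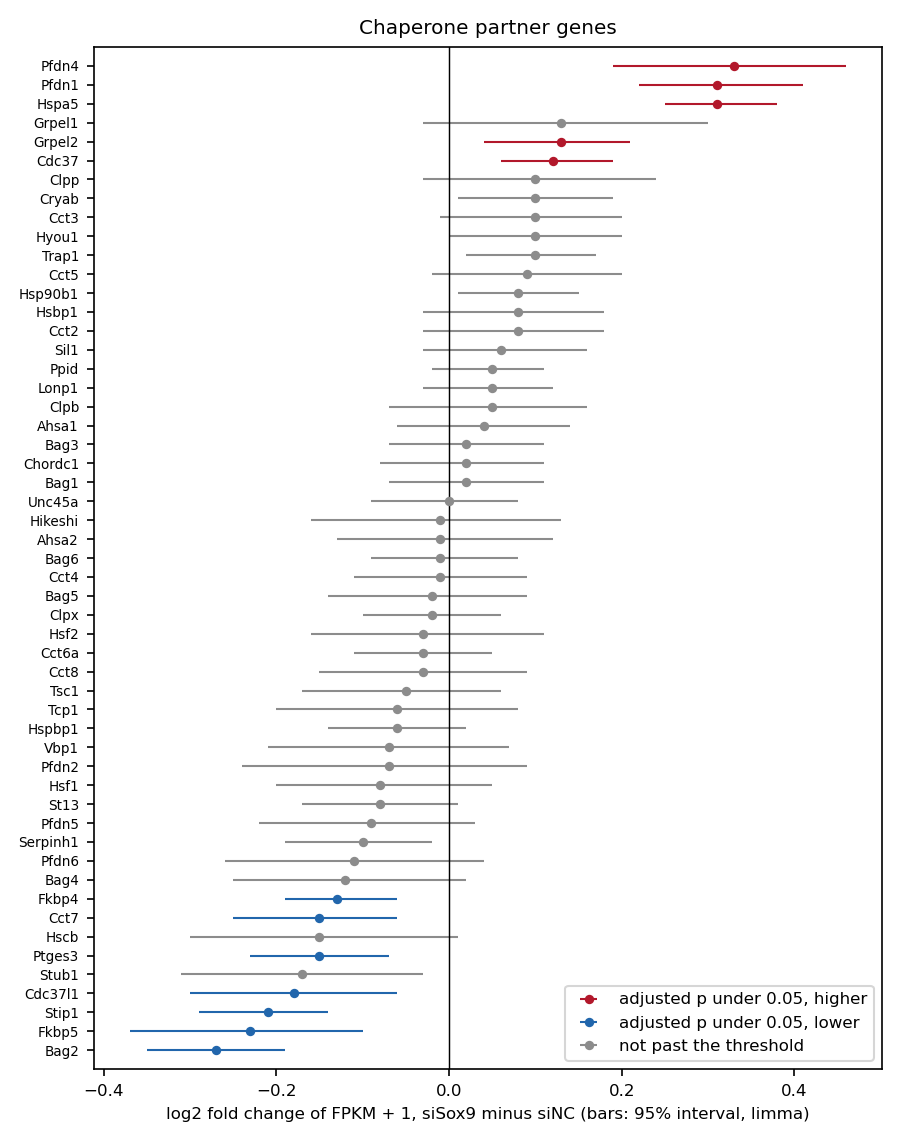
Log2 fold change of FPKM + 1, siSox9 minus siNC, of the 53 tested chaperone partner genes with limma's 95% interval, ordered by size. Pfdn4, Pfdn1 and Hspa5 stand at the upper end (0.33, 0.31 and 0.31) and Bag2, Fkbp5 and Stip1 at the lower end (-0.27, -0.23 and -0.21).

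Hspa5 encodes BiP, the Hsp70 protein of the endoplasmic reticulum with which Dnajb9, Dnajb11 and Dnajc3 work. It measured 245, 244 and 248 FPKM with siSox9 and 200, 198 and 194 FPKM with siNC, at 125% of the siNC mean and with no overlap (log2 fold change 0.31, SE 0.03, adjusted p = 0.000344). The Hsp90 protein of the same compartment, Hsp90b1, measured 109, 108 and 113 FPKM with siSox9 and 105, 102 and 106 FPKM with siNC. Its groups did not overlap, but it was not past the threshold (log2 fold change 0.08, SE 0.03, adjusted p = 0.0855), which it passed as higher with median centring (log2 fold change 0.11, adjusted p = 0.0355). Among the prefoldins, which deliver newly made actin and tubulin to the Cct folding ring, Pfdn4 (log2 fold change 0.33, adjusted p = 0.00547) and Pfdn1 (log2 fold change 0.31, adjusted p = 0.00188) rose and the other 4 were not past the threshold.

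Of 11 tested cochaperones of Hsp90, 5 fell and 1 rose, 54.5% called against 30.4% of all genes tested, with no test of this list, which was chosen with earlier results known. Without siSox9 replicate 2, 2 of all partners were lower. Stip1, which holds Hsp70 and Hsp90 together while a client passes between them, measured 97.2, 98.3 and 100 FPKM with siSox9 and 111, 116 and 116 FPKM with siNC (log2 fold change -0.21, SE 0.03, adjusted p = 0.00269). All siSox9 libraries lay under all siNC libraries, at 86% of the siNC mean. Fkbp5, an immunophilin of steroid receptor complexes, fell at a low level, from a mean of 3.22 FPKM to 2.59 FPKM (log2 fold change -0.23, adjusted p = 0.021), and lost its call without siSox9 replicate 2 (adjusted p = 0.0578) or siNC replicate 3 (adjusted p = 0.0667), with no minimum (adjusted p = 0.0666), with TPM (adjusted p = 0.0615) and with quantile normalization (adjusted p = 0.056). Fkbp4, Ptges3 and Cdc37l1, named after their values were seen, fell by 0.13 to 0.18 on the log2 scale, and Cdc37, which brings kinases to Hsp90, rose by 0.12. Each of these 4 lost its call without siSox9 replicate 2, with adjusted p from 0.0513 (Ptges3) to 0.0614 (Cdc37), and all but Fkbp4 also without siSox9 replicate 1, with adjusted p from 0.0578 (Ptges3) to 0.0931 (Cdc37l1). Cdc37 also lost its call without siNC replicate 3 (adjusted p = 0.0582), and Cdc37l1 without siSox9 replicate 3 (adjusted p = 0.0814) or siNC replicate 3 (adjusted p = 0.0901). With TPM none of the 4 was called, with adjusted p from 0.0597 (Cdc37) to 0.19 (Fkbp4), and Cdc37l1 also lost its call with no minimum (adjusted p = 0.0808), median centring (adjusted p = 0.0522) and quantile normalization (adjusted p = 0.0576). Bag2, a nucleotide exchange factor of Hsp70, measured 23.9, 23.6 and 24.1 FPKM with siSox9 and 27.9, 29.8 and 29.2 FPKM with siNC, again without overlap (log2 fold change -0.27, SE 0.03, adjusted p = 0.00159). The split of the partners was 4 higher and 2 lower with TPM, 7 and 5 with median centring, and 6 and 6 with quantile normalization.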

How the data were processed

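RNA-Seq of 3 siSox9 and 3 siNC libraries was analysed. The authors deposited 1 table of FPKM, with no further scaling between libraries. The submitters' processing notes name HISAT2 2.1.0, Bowtie2 2.2.3, TopHat2 and the build mm9 without their roles, but of 30246 genes with an identifier in GENCODE M21 (GRCm38), 93.3% had the same position, so GRCm38 was used. Members, partners, markers and subgroups were chosen with earlier results of these data known. From these lists 1 partner and 1 marker are not reported here.

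Genes averaging 1 FPKM or more over the 6 libraries were tested with limma 3.58.1 (lmFit, eBayes with trend; R 4.3.3) on log2(FPKM + 1), unpaired, with Benjamini-Hochberg adjustment over all of them. Named genes were the 12 largest rises and 12 largest falls of members past the threshold, a fixed list of well-known members, the highest member of each family, Sox9, Hsf1, Hspa5, Hsp90b1, Bag3 and the 3 largest rises and falls of partners; others were named after their values were seen. Whole reads were recovered from FPKM and exon length for 27948 genes (within 0.02 reads) and 61 members. Tables used Python 3.11.15, pandas 2.3.3, numpy 2.4.6, scipy 1.17.1 and matplotlib 3.10.9. The limma fit was run on simulated data whose changes were larger than most of those called here. The simulation therefore does not show how well small changes are called.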

Additional observations from a re-analysis of the deposited data

How the results depend on the processing

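The alternatives were a pseudocount of 0.1, no minimum, a minimum of 5 FPKM, TPM, median centring, quantile normalization, a replicate block, leaving out each library and, chosen after seeing the data, limma voom on recovered reads. Members called higher and lower were 8 and 6, 5 and 3 with no minimum, 5 and 4 with TPM, 11 and 6 with median centring, 9 and 4 with quantile normalization, and 2 to 6 and 4 to 7 with 1 library left out. Partners lower were 7, 4 with no minimum, 2 with TPM, 5 with median centring and 2 to 9 with 1 library left out, while partners higher were 5, and 3 to 5 with 1 library left out. Over all genes 3650 were called, 1532 higher and 2118 lower, against 2424 to 3654 with 1 library left out, 1229 and 1342 with TPM, 1959 and 1765 with median centring and 1812 and 1797 with quantile normalization. Voom called 8 members higher and 7 lower of the 48 with whole reads. No named gene past the threshold changed sign under any of these alternatives.

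No pairing by replicate number was visible: deviations of same-numbered libraries correlated at 0.0649, -0.0504 and 0.00784. These values cannot show whether same-numbered libraries came from the same culture or animal. With the replicate block 4 members were higher and 6 lower, with the calls of Dnajb2, Dnajb6, Dnajb12 and Dnajc11 lost (adjusted p from 0.0508 to 0.0607), and 3262 genes were called in all. Depth limited the low members, and Dnajc30 rested on 32 to 67 reads a library.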
